A study of Mus musculus with 24 samples.

Results

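Meis1, Mecom, Prdm16, Mllt3 and Hlf are 5 genes known for roles in blood stem cells, taken here from 21900 protein-coding genes of the RefSeq annotation of the mouse build GRCm38, which is mm10. All peaks that overlapped each gene's span or the 100 kb on either side of it were collected, and this stretch is called the gene's window. Peaks were merged within each assay, which gave 79 of 58677 H3K4me1 regions, 212 of 197241 PU.1 regions and 104 of 79171 ATAC regions in the 5 windows. The genes were chosen by their H3K4me1 peaks in Utx knockout against wild-type cells of these same libraries, with the PU.1 values at Prdm16 also known, so those values are described and not tested.

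The 22 libraries came from lineage-negative bone marrow progenitors of C57BL/6 mice, collected with a lineage depletion kit. H3K4me1 ChIP-seq was done on 2 wild-type (UTX WT) and 2 Utx knockout (UTX KO) libraries, and PU.1 ChIP-seq on 3 of each. ATAC-seq came in a pair of sets that the labels call A and B, and every ATAC sample carried Cas9. Set B held 2 libraries each of UTX WT and UTX KO cells with the empty vector and of both genotypes with guide 2 against Smarca4, also called Brg1, the ATPase of the BAF chromatin remodeller. Set A held 2 libraries of UTX WT cells with the empty vector and 2 with guide 1 against Chd4, the ATPase of the NuRD complex. For set A the labels describe culture for 7 days in semi-solid medium and 5 days in liquid medium, with collection 6 days after editing. How the Utx knockout was made, the animals' age and sex, and whether replicates were separate animals are not given in the sources used here. P-values therefore measure only the spread between these samples. A single guide was used per target, and no readout of Utx, Smarca4 or Chd4 loss was analysed here.

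Utx, encoded by Kdm6a, removes methyl groups from histone H3 lysine 27 and works with the complexes that write H3K4me1, a mark of enhancers. PU.1 is an ETS family transcription factor of myeloid and lymphoid development that also acts in stem cells. Meis1 is a homeodomain protein that binds DNA with HOX partners, while Mecom (also known for its short form Evi1) and Prdm16 are related zinc finger proteins of the PRDM family. Mllt3, or AF9, is a chromatin reader that joins elongation factors and Dot1l, and Hlf is a bZIP transcription factor whose expression marks long-term stem cells.

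All 5 genes lie on the minus strand. Meis1 spans chr11:18880428-19019651, Mecom chr3:29951296-30509759, Prdm16 chr4:154316122-154637360, Mllt3 chr4:87769925-88033407 and Hlf chr11:90336535-90390917. RefSeq (GRCm38.p6) gave 7 start windows for the 5 genes, with an internal start for Mecom and another for Mllt3. The 250 bases before 4 of these starts are shown because the results refer to them: the Meis1 start was open in every ATAC library, the internal Mecom start in set B alone, the Prdm16 start had H3K4me1 in all 4 libraries, and the internal Mllt3 start lay in a lost H3K4me1 region. Capitals mark a match to 1 of 3 short motifs searched on both strands. The core searched for ETS factors was GGAAGT. For GATA factors it was AGATAA. The one for MEIS proteins was TGACAG. All sequences are read 5′ to 3′ along the gene. At Meis1 and Prdm16 the annotated gene span reaches further upstream than the start used.
Meis1 (chr11:19018970-19019219, minus strand): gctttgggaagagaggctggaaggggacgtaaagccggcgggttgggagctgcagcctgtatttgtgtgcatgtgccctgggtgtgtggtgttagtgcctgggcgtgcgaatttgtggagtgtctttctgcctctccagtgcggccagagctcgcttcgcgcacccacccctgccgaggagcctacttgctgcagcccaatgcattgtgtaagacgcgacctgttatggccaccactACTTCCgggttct
Mecom internal start (chr3:30013205-30013454, minus strand): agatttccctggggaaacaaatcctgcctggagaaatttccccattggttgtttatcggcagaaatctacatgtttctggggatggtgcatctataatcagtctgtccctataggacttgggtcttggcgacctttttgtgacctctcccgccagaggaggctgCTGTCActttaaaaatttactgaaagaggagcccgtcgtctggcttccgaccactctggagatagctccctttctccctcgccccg
Prdm16 (chr4:154636874-154637123, minus strand): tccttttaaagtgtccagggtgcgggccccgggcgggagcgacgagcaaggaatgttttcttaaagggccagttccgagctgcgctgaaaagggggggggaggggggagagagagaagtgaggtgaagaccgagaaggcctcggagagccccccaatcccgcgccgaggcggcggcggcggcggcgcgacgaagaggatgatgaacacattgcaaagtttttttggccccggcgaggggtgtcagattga
Mllt3 internal start (chr4:87806324-87806573, minus strand): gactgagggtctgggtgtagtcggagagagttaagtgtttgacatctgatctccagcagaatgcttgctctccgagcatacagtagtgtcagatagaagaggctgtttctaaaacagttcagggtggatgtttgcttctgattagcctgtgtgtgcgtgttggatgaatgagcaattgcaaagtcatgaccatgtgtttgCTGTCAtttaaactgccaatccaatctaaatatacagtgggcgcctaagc
The ETS core on the reverse strand lay 13 bases before the Meis1 start, and the MEIS core on the reverse strand lay 86 bases before the internal Mecom start and 50 before the internal Mllt3 start. No match was found before the Prdm16 start, and no window held more than 1 match. Among 32851 windows of the same length in RefSeq, 19.7% held the ETS core, 9.99% the GATA core and 15.9% the MEIS core, so these matches describe the sequence and mark no site.

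The ChIP lists hold islands on a 200 bp grid, each with a whole number in column 4 that is taken as its read count. For ATAC only intervals were deposited, so width is the one size measure and depth is unknown. List lengths ran from 43706 to 54654 for H3K4me1, from 137850 to 171535 for PU.1 and from 24833 to 50927 for ATAC. The sum of column 4, in units of 1000000, ran from 6.93 to 14.2 for H3K4me1 and from 20.4 to 27.8 for PU.1. Column 4 of a window or region is therefore also given as parts per 1000000 of its list's sum (ppm). Of 6 progenitor markers all had a peak within 1 kb in every ChIP library, and 5 or 6 in each ATAC library, where Flt3 lacked one in 1 Smarca4 library of each genotype. Of 10 granulocyte and monocyte markers, 8 to 10 had a peak in each H3K4me1 library and 9 or 10 in each PU.1 library. In ATAC set B 2 to 6 of them had one, with Elane, Mpo, S100a9 and Ly6g at 0 in all 8 libraries, against 8 or 9 in set A. Of 10 B cell markers 9 or 10 had a peak in every ChIP library. The other lists were also mostly covered there. Stroma and endothelium markers numbered 5 or 6 of 6, and T and NK cell markers 6 to 8 of 8. Erythroid and megakaryocyte markers numbered 6 or 7 of 7, and mast cell and basophil markers 3 to 5 of 5. Presence of a ChIP island at these markers therefore does not tell cell types apart, and no share over all genes is set beside the counts.

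In wild-type cells the windows held ChIP islands near or below the median density of coding windows, Mllt3 apart. Per 100 kb, Mllt3 held 4.96 H3K4me1 islands, Meis1 3.98, Hlf 3.93, Prdm16 2.88 and Mecom 1.78, beside a median of 4.04 over all coding windows. PU.1 followed the same order at the top and had its fewest at Prdm16, with 9.92 islands per 100 kb at Mllt3, 8.75 at Meis1, 7.60 at Hlf, 5.36 at Mecom and 3.77 at Prdm16, beside a median of 8.84. In ATAC the sets differed. Meis1 held 7.52 peaks per 100 kb in set B with the empty vector, more than 84.3% of coding windows, while Prdm16 held 0.863 and the median was 3.48. In set A with the empty vector Meis1 held 3.24, more than 51.9% of coding windows, and the median was 3.09. These are means of the wild-type libraries. For PU.1 single libraries of Meis1 overlapped those of Mllt3 and those of Hlf. For H3K4me1 those of Meis1 overlapped those of Mllt3, Hlf and Prdm16.

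Lost regions are those with a peak in all reference libraries and in none of the perturbed ones. Gained regions show the opposite, kept regions have a peak throughout, and the rest are mixed. Without Utx 16 of 79 H3K4me1 regions in the 5 windows were lost, 1 was gained and 21 were kept. Over the whole series 10.9% of H3K4me1 regions were lost, 2.15% gained and 45.9% kept. Since these losses helped choose the genes, the share of 20.3% is read as a description. Of all coding windows, 50.7% held at least 1 lost H3K4me1 region, so a single loss sets no gene apart. The number of islands in the 5 windows was 72 and 78 in the wild-type libraries and 37 and 43 in the knockout libraries, a mean of 75 ± 4.24 (SD, n = 2) against 40 ± 4.24 (SD, n = 2) with no overlap. Lists were shorter without Utx, and per 10000 islands of the list the windows held 14.0 and 14.3 in wild type and 8.39 and 9.84 in knockout.

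Few PU.1 regions were lost. Of 212 PU.1 regions 5 were lost, 2 gained and 105 kept, beside 1.16%, 2.87% and 50% over the series. The losses lay at Prdm16, with 4, and at Hlf, with 1. PU.1 islands in the 5 windows numbered 158, 159 and 149 in wild type and 171, 131 and 155 in knockout, a difference of -3 with overlapping groups. The planned test of this difference is not used because the known Prdm16 values are part of it. Per 10000 islands of the list the values were 11.0, 11.1 and 10.8 against 9.97, 9.47 and 9.59, which do not overlap (difference -1.30, with Prdm16 included). Scaling by list length was added here and for ATAC after the data were seen.

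Open chromatin was compared in set B with the empty vector. Of 94 ATAC regions 9 were lost, 2 gained and 48 kept, beside 11.3%, 1.93% and 55.9% over the series. ATAC peaks in the windows numbered 75 and 83 in wild type and 70 and 65 in knockout, a difference of -11.5 that the design cannot test below p = 0.333 (exact permutation test, two-sided, p = 0.333, n = 2 against 2). The direction was not stable to list length: per 10000 peaks of the list the difference was 1.04. With lists trimmed to the shortest it was 5, with 3 regions lost and 6 gained, so the balance of calls turned as well. In bulk libraries, fewer cells of a type and less signal per cell cannot be told apart.

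**Figure D1:**
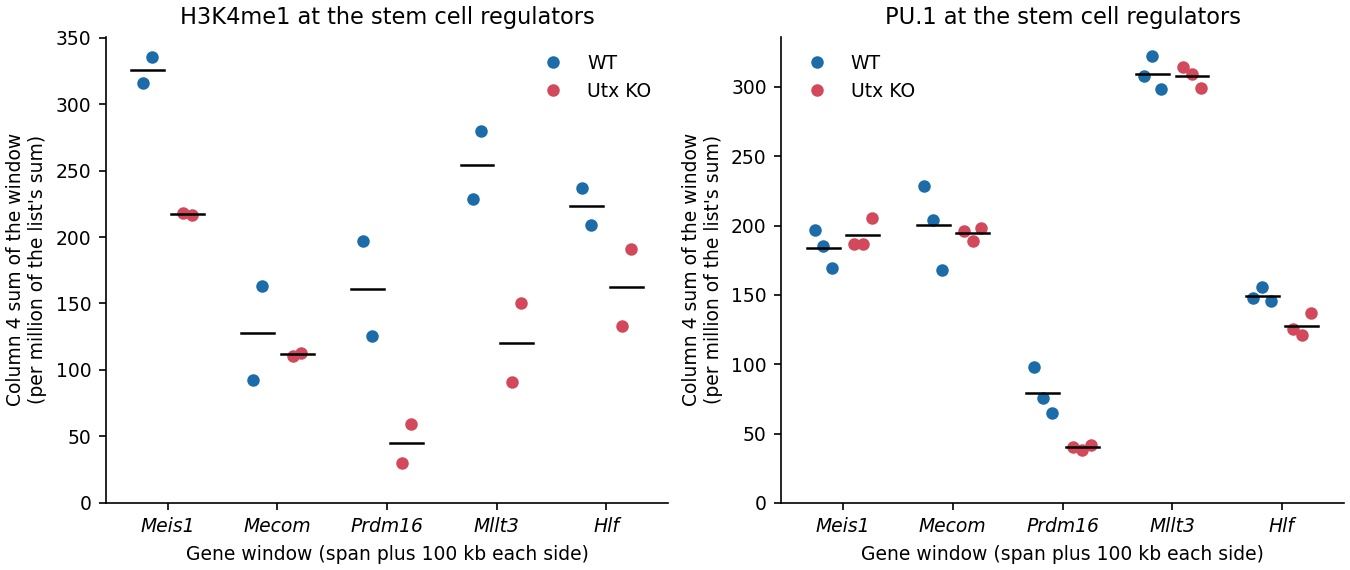
Column 4 summed over each gene window, in ppm of the list's sum (vertical axes), for H3K4me1 (left) and PU.1 (right). Each point is a library, blue for wild type and red for Utx knockout, and black bars are group means. Prdm16 and Hlf are lower in every knockout library of both assays, while Meis1, Mecom and Mllt3 differ little in PU.1.

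Prdm16 had the lowest H3K4me1 of the 5 genes relative to wild type. Its window held 16 and 14 islands in wild type and 3 and 5 in knockout. Column 4 came to 197 and 125 ppm in wild type and 30.3 and 59.6 in knockout. Both knockout libraries lay below both wild-type libraries, and the log2 ratio of the means was -1.84. Of 15020 coding windows with at least 5 islands on average, 25 had a lower ratio and the median was 0.03. This rank describes the selection, since the genes were chosen by their H3K4me1 peaks. Islands covered 46.6 and 44 kb of the window in wild type and 7.00 and 12.8 kb in knockout. Of 19 regions 5 were lost, 2 were kept and 12 were mixed. The kept island with the highest column 4 in wild-type replicate 1, chr4:154633801-154638599, covered the start site, where H3K4me1 was 29.7 and 16.0 ppm in wild type and 17.2 and 29.7 in knockout, overlapping groups. The mark was thus still present at the start in a window with 3 and 5 islands left in the knockout libraries.

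The 3 lost Prdm16 islands with the highest values were 1 upstream of the gene and 2 within it. The strongest, chr4:154540001-154544599, lay 94.6 kb inside the gene and had a column 4 of 180 and 328 in wild type and no island in knockout. A second, chr4:154696201-154702799, lay 62.6 kb upstream with 140 and 216. Another, chr4:154389801-154393799, lay 245 kb inside the gene with 79 and 115. Of the 5 lost islands 3 held a PU.1 region present in all wild-type libraries, and none held an ATAC peak present in both wild-type libraries of set B with the empty vector.

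PU.1 at Prdm16 was lower as well. Its islands numbered 24, 17 and 18 in wild type and 16, 10 and 15 in knockout, and these numbers do not overlap. Column 4 was 97.9, 75.7 and 64.8 ppm in wild type and 40.6, 38.5 and 41.5 in knockout, a ratio of 0.506. Every knockout library was below every wild-type library. Of 18353 coding windows 8 had a lower ratio, and none of those 8 overlapped the Prdm16 window. This rank too describes the selection. The lost PU.1 regions were chr4:154530201-154531799 (93, 114 and 41 in column 4 of the wild-type libraries), chr4:154390201-154391199 (85, 65 and 50), chr4:154541401-154542199 (77, 62 and 35) and, named after its values were seen, chr4:154425401-154425799 (68, 51 and 36). All 4 lay within the gene. Both chr4:154390201-154391199 and chr4:154541401-154542199 lay inside lost H3K4me1 islands. This makes 2 of the 16 lost H3K4me1 regions of the 5 windows (12.5%) and 2 of their 5 lost PU.1 regions (40.0%), beside 174 of 6419 (2.71%) and 178 of 2295 (7.76%) over the series. Both places lie at Prdm16, whose H3K4me1 and PU.1 values were known when the genes were chosen, so these shares only describe the selection. The strongest PU.1 island of the window, chr4:154549601-154550999, was kept, at 17.5, 16.3 and 12.2 ppm in wild type and 9.0, 8.99 and 8.46 in knockout.

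**Figure D2:**
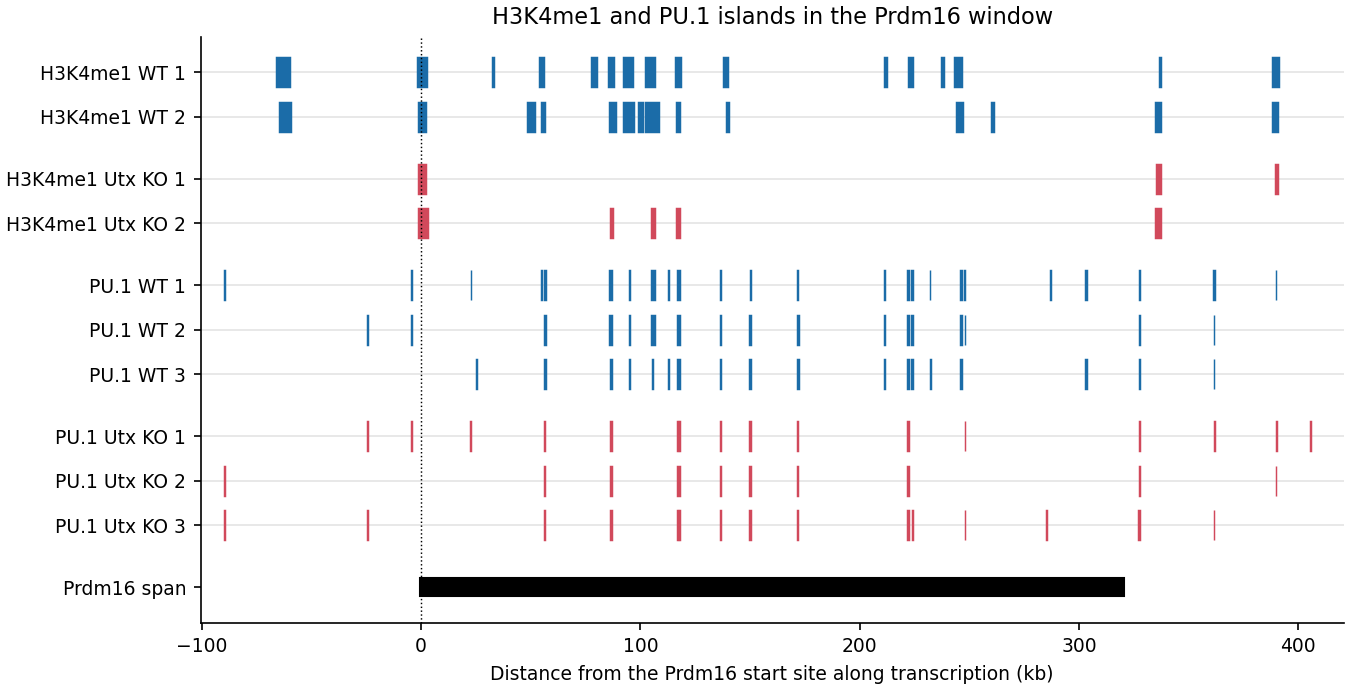
H3K4me1 and PU.1 islands of the Prdm16 window in each ChIP library, placed by distance from the start site in kb along transcription (horizontal axis), with blue boxes for wild type, red for Utx knockout and the gene span in black. H3K4me1 islands number 16 and 14 in wild type and 3 and 5 in knockout, and the island over the start site at 0 is present in all 4 libraries.

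Open chromatin at Prdm16 was scarce. Set B held 4 and 5 peaks in wild type with the empty vector and 2 and 3 in knockout, too few for a ratio. No ATAC region was lost or gained there without Utx. The widest, chr4:154634870-154636244, lay 1.3 kb inside the gene and measured 685 and 1270 bp in wild type and 515 and 598 bp in knockout. It was open in all 8 set B libraries and in none of set A.

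Mllt3 came second in H3K4me1. Islands numbered 21 and 25 in wild type and 10 and 15 in knockout, and column 4 was 229 and 280 ppm against 91.1 and 150. The groups did not overlap, the log2 ratio was -1.08, and 253 of 15020 windows had a lower one. As at Prdm16, the H3K4me1 rank describes the selection. With the upper 50% of each list the log2 ratio was -2.09, and over the gene span alone -1.57. Of 24 regions 6 were lost and 8 kept. The strongest lost island, chr4:87798401-87811599, is 13199 bp long as merged and had a column 4 of 186 and 491 in wild type. It takes in the internal start, which lay under an island in 1 of the 2 wild-type libraries and in no knockout library. The next were chr4:87904001-87906599 with 71 and 104 and chr4:87928401-87936199 with 60 and 236. All 3 lay within the gene.

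Summed over the window, PU.1 at Mllt3 was the highest of the 5 and nearly equal between genotypes. Column 4 was 308, 322 and 298 ppm in wild type and 314, 309 and 300 in knockout, a ratio of 0.994 with overlapping groups. Single islands differed both ways. Over the start, chr4:88032801-88036199 was 21.2, 21.4 and 19.1 ppm in wild type and 27.6, 30.2 and 30.9 in knockout, higher in every knockout library. The island strongest in wild type, chr4:87682001-87684399, was 32.5, 32.6 and 33.2 ppm against 26.3, 30.5 and 26.2, lower in every knockout library. None of 58 PU.1 regions was lost, and 2 narrow regions were gained. Gained region chr4:87809201-87809599 had a column 4 of 45, 33 and 40 in knockout and lay inside the lost H3K4me1 island at the internal start. Gained region chr4:87867801-87868199 had 32, 36 and 32. Within the same lost H3K4me1 island, PU.1 region chr4:87807401-87808399 was kept, at 251, 245 and 235 in wild type and 238, 184 and 175 in knockout. PU.1 was thus still present where H3K4me1 was lost.

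Among ATAC regions Mllt3 lost 3 of 16 without Utx and gained 1. The lost regions were 396, 278 and 220 bp wide. The widest, chr4:88118841-88119236, lay in Focad, 85.6 kb upstream, and was also present in 3 of 4 set A libraries. The gained region chr4:87728572-87729162, downstream of the gene, measured 466 and 589 bp in knockout with the empty vector and 436 and 360 bp with Smarca4 gRNA, and was absent from all wild-type libraries. At the Mllt3 start itself ATAC peaks were present in all 12 libraries and PU.1 in all 6.

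At Meis1 5 of 10 H3K4me1 regions were kept. Its H3K4me1 islands numbered 17 and 10 in wild type and 11 and 10 in knockout, which overlap. Column 4 was 316 and 335 ppm in wild type and 218 and 217 in knockout, and these do not overlap, with a log2 ratio of -0.58. Wild-type replicate 2 had fewer islands than replicate 1 and the longest cover, 125 kb against 85.4 kb in replicate 1 and 45.0 and 60.2 kb in knockout, so number and cover ranked the libraries differently. The largest island, chr11:18940001-18978999 within the gene, was kept at 94.1 and 104 ppm in wild type and 54.2 and 39.2 in knockout. The 2 lost islands, chr11:18979801-18986799 (111 and 167 in wild type) and chr11:18933201-18938999 (46 and 119), lay on either side of it and held neither PU.1 nor ATAC peaks shared by all wild-type libraries. The gained island, chr11:18814001-18815599, lay downstream of the gene and had 60 and 50 in knockout. PU.1 was present there in all 6 libraries, with a column 4 of 126, 161 and 135 in wild type and 298, 222 and 291 in knockout.

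PU.1 over the whole Meis1 window was 197, 185 and 169 ppm in wild type and 187, 186 and 205 in knockout, with overlapping groups, and none of 45 regions was lost or gained. The strongest, chr11:18969401-18971599, lay inside the largest H3K4me1 island and was 39.1, 35.4 and 35.6 ppm in wild type and 32.0, 37.6 and 34.7 in knockout. Open chromatin was rich in set B, with 24 and 27 peaks in wild type and 25 and 25 in knockout with the empty vector. A single ATAC region of 29 was lost, chr11:18920720-18920981 within the gene, 225 and 208 bp wide. Per 10000 peaks of the list Meis1 held 4.72 and 5.30 in wild type and 6.18 and 6.09 in knockout, higher in both knockout libraries. The Meis1 start was open in all 12 ATAC libraries and bound by PU.1 in all 6.

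At Mecom the genotypes overlapped in both ChIP assays. H3K4me1 islands numbered 8 and 19 in wild type and 9 and 7 in knockout. Column 4 was 92.1 and 163 ppm against 110 and 113, so both knockout libraries lay between the wild-type libraries. The island over its first start, chr3:30502801-30517199, was the strongest and was kept, at 43.7 and 39.1 ppm in wild type and 51.5 and 49.8 in knockout. The lost islands were chr3:30105201-30107799 (55 and 56 in wild type) and chr3:30237001-30240399 (34 and 83), both within the gene. PU.1 was 229, 204 and 168 ppm in wild type and 196, 189 and 198 in knockout, with overlap, and none of 60 regions was lost or gained. The strongest PU.1 island, chr3:30599401-30604199, lay 92.0 kb upstream over Actrt3 and Mynn.

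In ATAC, Mecom without Utx lost 4 of 32 ATAC regions and gained 1. The region chr3:30239250-30239786 measured 328 and 496 bp in wild type with the empty vector and 312 and 307 bp with Smarca4 gRNA, and was absent from all 4 knockout and all 4 set A libraries. It lay inside the lost island chr3:30237001-30240399, the only such place in the 5 windows. It stands for 1 of 16 lost H3K4me1 regions (6.25%) and 1 of 9 lost ATAC regions (11.1%), beside 4.74% of each list over the series. Another lost region, chr3:30203792-30204215, measured 385 and 371 bp in wild type with the empty vector and was absent from all other ATAC libraries. A further one, chr3:30014469-30014769, 1.3 kb before the internal start, measured 283 and 280 bp. The gained region chr3:30344235-30344535 was 234 and 247 bp wide in knockout with the empty vector alone. Per 10000 peaks, Mecom held 5.11 and 5.50 in wild type and 5.93 and 4.88 in knockout, with overlap.

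Hlf has the shortest span, and its window takes in Mmd and part of Stxbp4. The strongest H3K4me1 and PU.1 islands and the widest ATAC peak of the window lay over Mmd. H3K4me1 islands numbered 10 and 10 in wild type and 4 and 6 in knockout, and column 4 was 237 and 209 ppm against 133 and 191, without overlap and with a log2 ratio of -0.46. The lost island, chr11:90347001-90351999 within Hlf, had 105 and 128 in wild type. PU.1 was 148, 155 and 145 ppm in wild type and 126, 121 and 137 in knockout, lower in every knockout library, with a log2 ratio of -0.22. Over the Hlf span alone, without Mmd, the log2 ratio was -0.85 for H3K4me1 and -0.92 for PU.1. The lost PU.1 region, chr11:90379801-90380599, had 41, 50 and 40 in wild type.

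The lost ATAC region of Hlf was the widest of the 9. It spans chr11:90387424-90388692, 2.9 kb inside the gene, and measured 418 and 1145 bp in wild type with the empty vector, 590 and 829 bp with Smarca4 gRNA, 1170 and 1106 bp in set A with the empty vector and 709 and 417 bp with Chd4 gRNA. None of the 4 knockout libraries had a peak there. All 8 wild-type ATAC libraries had one. PU.1 region chr11:90387001-90389199 at the same place was kept, with a column 4 of 269, 276 and 286 in wild type and 232, 181 and 281 in knockout, as was the H3K4me1 island over it.

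**Figure D3:**
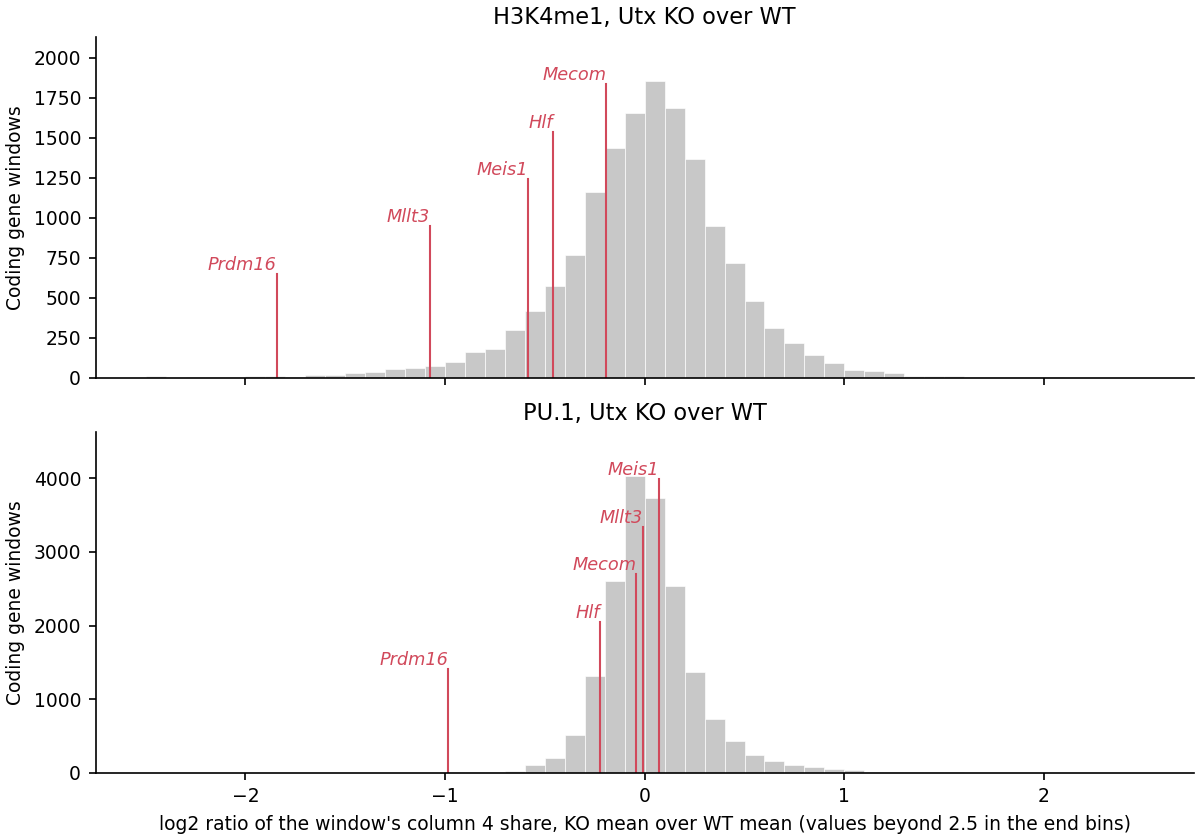
Distribution over coding gene windows of the log2 ratio of column 4 share, Utx knockout over wild type (horizontal axis), for H3K4me1 (top, 15020 windows) and PU.1 (bottom, 18353 windows), with the 5 genes as red lines. All 5 lie below 0 in H3K4me1, and in PU.1 only Prdm16, at -0.98, lies outside the bulk. The H3K4me1 values and the Prdm16 PU.1 value were known when the genes were chosen, so these places describe the selection.

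Across the 5 windows, as over the whole series, lost and kept H3K4me1 islands differed in what they carried in wild type. Of 21 kept islands 19 held PU.1 and 15 held an ATAC peak, and of 16 lost islands 9 held PU.1 and 2 an ATAC peak. Over the series PU.1 was at 89.8% of kept and 49.6% of lost islands, and ATAC at 69.3% and 19.0%, beside 90.5% and 56.2% for PU.1 and 71.4% and 12.5% for ATAC in the 5 windows. Kept islands were longer, with a median of 6599 bp against 4499 bp, and a longer island has more room for a peak. Granulocyte and monocyte markers with H3K4me1 were 8 and 9 of 10 in wild type and 10 and 10 in knockout, where Ly6g had a peak in the knockout libraries alone, and B cell markers were 10 and 9 against 10 and 10. In ATAC set B with the empty vector, granulocyte and monocyte markers numbered 6 and 5 of 10 in wild type and 4 and 3 in knockout, where S100a8 was also at 0. B cell markers fell as well, from 6 and 6 of 10 to 5 and 5. So did T and NK cell markers, from 5 and 5 of 8 to 4 and 4, and mast cell and basophil markers, from 5 and 5 of 5 to 4 and 4. Progenitor markers stayed at 6 and 6 of 6. The knockout lists were shorter, at 40477 and 41024 peaks against 50845 and 50927. The part of these markers in the losses was not tested.

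Smarca4 gRNA was compared with the empty vector within each genotype. The wild-type contrast shares its controls with the Utx contrast above, and the knockout contrast shares the knockout libraries, so their values are set side by side only. In wild-type cells 5 of 91 ATAC regions were lost, none gained and 52 kept, beside 5.96%, 0.866% and 59.4% over the series. In knockout cells 7 of 72 were lost, none gained and 41 kept, beside 8.43%, 0.277% and 55.6%. Both shares of lost regions, 5.49% and 9.72%, lie near the background. Peaks in the 5 windows numbered 75 and 83 with the empty vector and 61 and 70 with gRNA in wild type, a difference of -13.5, and 70 and 65 against 58 and 45 in knockout, a difference of -16. The groups did not overlap in either genotype, and each exact permutation test (two-sided, n = 2 against 2) gave the smallest possible p, 0.333. Lists were shorter with gRNA, and per 10000 peaks the differences were -0.688 and -0.990, with overlapping groups. With lists trimmed to the shortest the difference in knockout turned to 1, with 2 regions lost and 2 gained, and in wild type 2 were lost and 1 gained. Granulocyte and monocyte markers with a peak numbered 6 and 5 of 10 against 5 and 3 in wild type and 4 and 3 against 2 and 2 in knockout. T and NK cell markers numbered 5 and 5 of 8 against 3 and 3 in wild type and 4 and 4 against 4 and 2 in knockout. Other lists were not lower throughout. Erythroid and megakaryocyte markers numbered 6 and 7 of 7 against 7 and 7 in wild type and 6 and 6 against 6 and 6 in knockout. B cell markers numbered 6 and 6 of 10 against 5 and 6 in wild type and 5 and 5 against 6 and 5 in knockout. The part of these lists in the differences was not tested.

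At Mllt3 ATAC peaks were fewer with Smarca4 gRNA in both genotypes, without overlap, also after scaling. It held 12 and 14 peaks in wild type with the empty vector and 9 and 8 with gRNA, and 12 and 10 against 7 and 6 in knockout. Per 10000 peaks of the list this was 2.36 and 2.75 against 2.14 and 1.73, and 2.96 and 2.44 against 1.95 and 2.0. The groups did not overlap in either genotype, and the log2 ratios were -0.40 and -0.45. Of coding windows 3.63% and 3.36% had a lower ratio. In wild-type cells the lost Mllt3 regions, chr4:87886505-87886782 and chr4:87859226-87859445, were absent from the Utx knockout libraries as well. In knockout cells the region chr4:87930789-87931301 was lost, and its widths formed steps across set B. They were 513 and 428 bp in wild type with the empty vector, 422 and 387 bp with Smarca4 gRNA, 264 and 236 bp in knockout with the empty vector, and no peak in knockout with Smarca4 gRNA. This region lay inside the lost H3K4me1 island chr4:87928401-87936199. Peak lists shortened in the same order of groups, with 50845 and 50927, 42015 and 46191, 40477 and 41024, and 35975 and 29930 peaks. The part of list length in these widths was not tested. The other lost region, chr4:87705743-87706255, lay 327 kb from the first start, downstream of the gene.

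**Figure D4:**
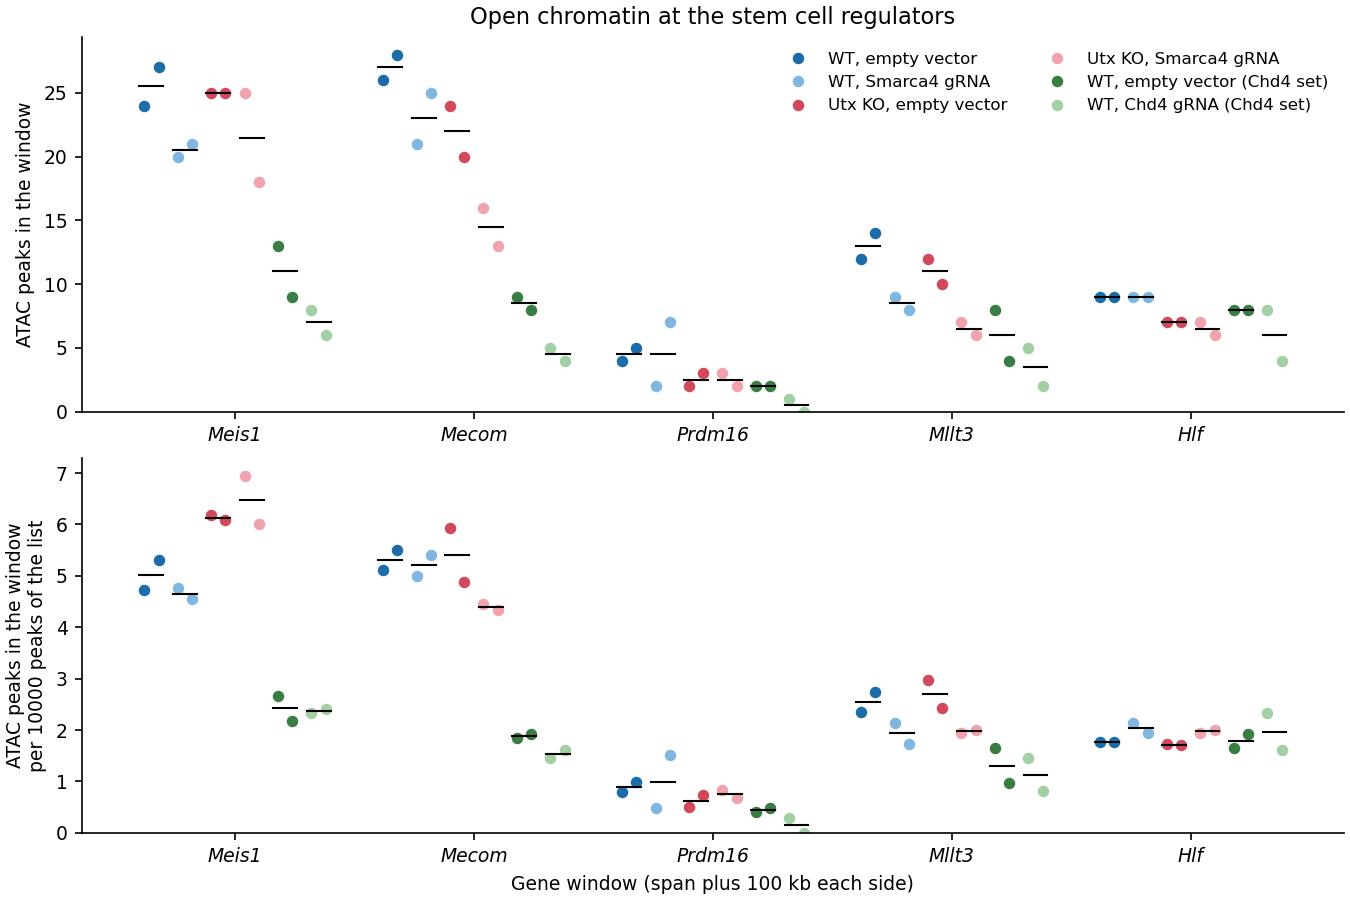
ATAC peaks in each gene window (top) and the same per 10000 peaks of the list (bottom), with a point for each of the 12 libraries, colours for the 6 groups and black bars for group means. For Mllt3 both Smarca4 gRNA groups lie below their empty vector groups in both panels, and Meis1 and Mecom are lower throughout in the Chd4 set.

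Mecom lost 2 of 32 ATAC regions with Smarca4 gRNA in wild type and 4 of 24 in knockout. Peaks numbered 26 and 28 against 21 and 25 in wild type and 24 and 20 against 16 and 13 in knockout. Per 10000 peaks the groups overlapped in wild type and not in knockout, where they were 5.93 and 4.88 against 4.45 and 4.34. Whether the genotypes differ in this was not tested. In wild type the lost regions were chr3:30203792-30204215 and chr3:30246753-30247238. In knockout the 3 widest were chr3:30160950-30161646 (502 and 588 bp with the empty vector), chr3:30143519-30144087 (312 and 311 bp) and chr3:30048141-30048824 (284 and 556 bp), and all 3 were still present in at least 1 wild-type library with Smarca4 gRNA. Meis1 lost a single region in each genotype, and it was the same one, chr11:18819735-18820069 downstream of the gene, 291 and 259 bp in wild type and 265 and 232 bp in knockout with the empty vector. Its peaks numbered 20 and 21 with gRNA in wild type and 25 and 18 in knockout. Hlf and Prdm16 lost none. Hlf held 9 and 9 peaks with the empty vector and 9 and 9 with gRNA in wild type. In knockout it held 7 and 7 against 7 and 6. Per 10000 peaks the Hlf means were 1.77 with the empty vector and 2.05 with gRNA in wild type. In knockout they were 1.72 and 1.98. Hlf was thus higher with gRNA after scaling, opposite to Mllt3, without overlap in either genotype. Of coding windows 87.3% and 76.4% had a lower ratio. The raw numbers did not rise, and lists were shorter with gRNA.

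**Figure D5:**
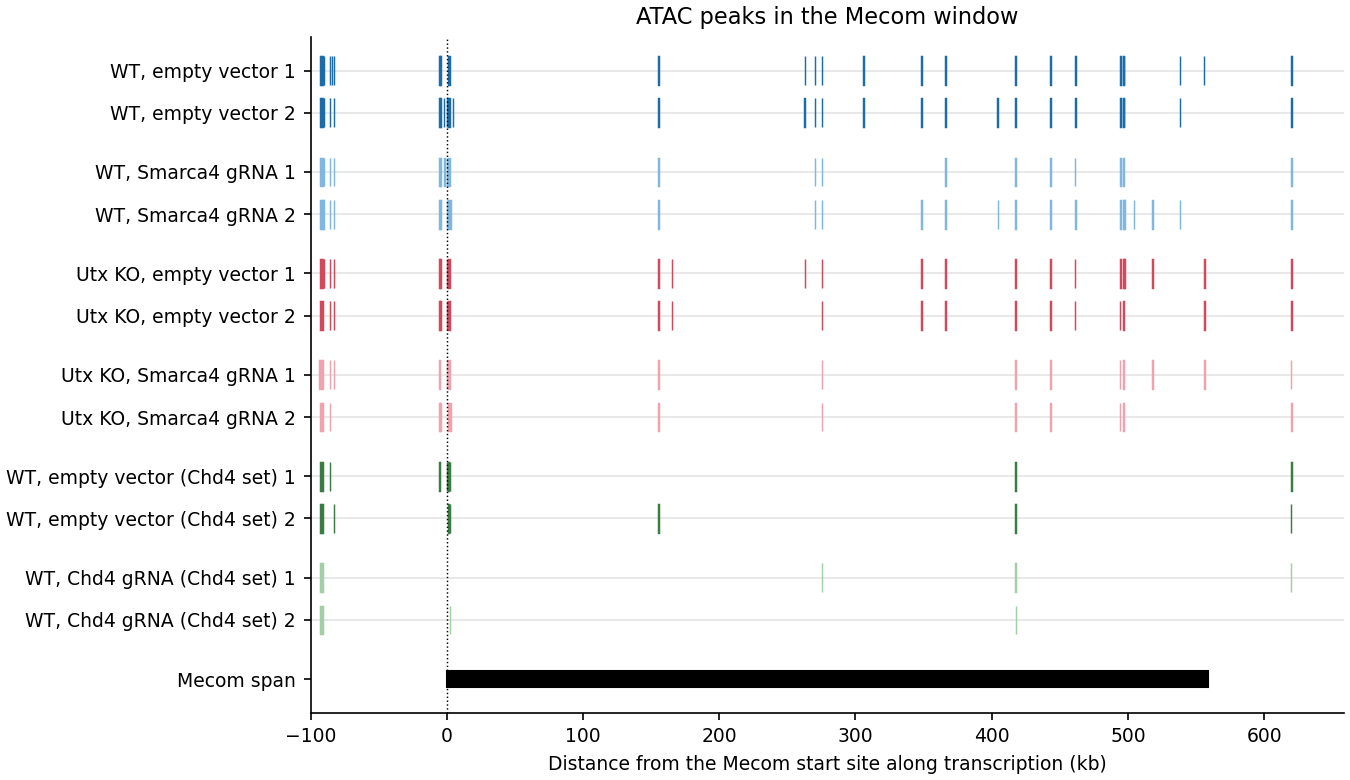
ATAC peaks of the Mecom window in each of the 12 libraries, placed by distance from the first start site in kb along transcription (horizontal axis), with a colour per group and the gene span in black. Peaks number 26 and 28 in wild type with the empty vector in set B, 16 and 13 in Utx knockout with Smarca4 gRNA, and 9 and 8 in wild type with the empty vector in the Chd4 set.

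Chd4 gRNA in wild-type cells was compared with the empty vector of set A. Of 40 ATAC regions 4 were lost, none gained and 14 kept, beside 13.7%, 0.1% and 43.3% over the series. Peaks numbered 40 and 31 with the empty vector and 27 and 16 with gRNA, a difference of -14 without overlap (exact permutation test, two-sided, p = 0.333, n = 2 against 2, the smallest possible p). Lists were shorter with gRNA, at 34429 and 24833 peaks against 48687 and 41480. Per 10000 peaks the difference was -0.702, and the groups overlapped. Of 7 erythroid and megakaryocyte markers, 6 and 5 had a peak with the empty vector and 4 and 3 with gRNA. Other lists were lower too, with B cell markers at 5 and 5 of 10 against 4 and 3, granulocyte and monocyte markers at 9 and 9 of 10 against 8 and 8, and mast cell and basophil markers at 5 and 5 of 5 against 4 and 4. The part of these lists was not tested. The lost regions were 2 at Meis1, 1 at Prdm16 and 1 at Hlf, and all 4 lay outside the gene spans. At Meis1 chr11:19026499-19027667, 8.1 kb upstream, measured 613 and 229 bp with the empty vector and had no peak with gRNA, while all 8 set B libraries had 963 to 1114 bp there. The other Meis1 region, chr11:18814211-18814468, lay where H3K4me1 was gained without Utx. At Prdm16 the lost region chr4:154246232-154246891 lay in Megf6 and was open in all 8 set B libraries, and at Hlf chr11:90241819-90242404 was seen in set A alone. Mecom held 9 and 8 peaks with the empty vector and 5 and 4 with gRNA, Mllt3 8 and 4 against 5 and 2, Prdm16 2 and 2 against 1 and 0, and Hlf 8 and 8 against 8 and 4. Per 10000 peaks Mecom held 1.85 and 1.93 against 1.45 and 1.61, without overlap. Meis1 held 2.67 and 2.17 against 2.32 and 2.42, and Hlf 1.64 and 1.93 against 2.32 and 1.61, both with overlap. Mllt3 and Prdm16 had too few peaks for a ratio.

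The empty vector libraries of the sets share genotype and vector and were set side by side after the data were seen. Of 91 ATAC regions in the 5 windows, 31 were present in both set B libraries and in neither of set A, and 4 the other way round. Over the series these shares were 17.7% and 14.2%. Mecom had 15 of 30 regions in set B alone and none in set A alone, Meis1 9 and 1 of 27, Mllt3 4 and 0 of 14, Prdm16 1 and 1 of 8 and Hlf 2 and 2 of 12. The internal Mecom start was open in all 8 set B libraries, at 658 to 806 bp, and in none of set A. Lists held 50845 and 50927 peaks in set B and 48687 and 41480 in set A. Granulocyte and monocyte markers with a peak numbered 6 and 5 of 10 in set B and 9 and 9 in set A. T and NK cell markers went the other way, with 5 and 5 of 8 against 2 and 2, and B cell markers numbered 6 and 6 of 10 against 5 and 5. Their part in the difference was not tested, and set, culture and processing cannot be told apart.

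Partner and other stem cell genes were counted with the same windows. Of 14 partners and cofactors of the 5 genes, 7 had a lost H3K4me1 region and 3 a gained one, beside 50.7% and 13.2% of coding windows. Among them Tcf3, an E protein whose human counterpart is fused to HLF in some leukaemias, lost 5 H3K4me1 regions and gained 1. The Hoxa7, Hoxa9, Hoxa10, Hoxb4 and Hoxb5 windows lost none. Of 20 other stem cell transcription factors 17 had a lost H3K4me1 region and 4 a gained one, and of 20 stem cell surface and other markers 12 and 5. For PU.1 the genes with a loss numbered 4 of 14, 11 of 20 and 5 of 20, beside 24.7% of coding windows, and those with a gain 7, 9 and 13, beside 40.9%. For ATAC without Utx losses touched 11, 14 and 14 genes and gains 2, 2 and 4, beside 52.1% and 8.89%. With Smarca4 gRNA in wild type losses touched 9, 9 and 10 genes and gains 2, 1 and 0, beside 39.3% and 6.29%. In knockout they touched 4, 13 and 10 and 0, 0 and 1, beside 37.5% and 1.99%, and with Chd4 gRNA 10, 15 and 12 and 0, 1 and 0, beside 55% and 0.758%. Windows of neighbouring genes share regions, and these counts describe the lists without a test. The shares of coding windows set beside them were not matched for window length or number of regions.

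The genes whose peak numbers followed each member most closely were taken from 12927 coding windows, by Pearson's r over the 22 libraries of log2 peak number per list, centred within each assay and ATAC set. They were Best3 (0.77) and Arid3c (0.76) for Meis1, Slc16a12 (0.81) and Nedd4 (0.74) for Mecom, Mkrn1 (0.82) and Igsf3 (0.82) for Prdm16, Fbxl17 (0.80) and Gfpt2 (0.78) for Mllt3, and Cript (0.84) and Exog (0.81) for Hlf. Prdm16 itself has fewer peaks than was asked of the candidates, and the highest of so many values is high by selection. Among the members themselves r was highest between Prdm16 and Hlf, at 0.60, and lowest between Meis1 and Mecom, at -0.56.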

How the data were processed

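Peak lists of 22 of 24 samples were used. Per the submitters' processing notes the tools of the authors were Bowtie2, Bowtie, MACS2 and SICER on build mm10, and for set A Bowtie and MACS2 only; versions and roles are not given in the sources used here. The deposited ChIP lists hold a signal per island in column 4, a whole number taken as its read count, which the labels do not state. It is the authors' value. The deposited ATAC lists give intervals only. Depth of the libraries is unknown, and the number of libraries limits the precision.

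Peaks were assigned to a window when they overlapped the RefSeq gene span plus 100 kb, merged over all libraries of an assay where they overlapped or touched, and called lost, gained or kept by presence. For ATAC window totals, exact permutation tests (two-sided) were run. H3K4me1 totals were not tested, and the planned test of PU.1 totals was run but is not used. Values of both assays were known when the genes were chosen. The members and gene lists were chosen with earlier results of these data known. Regions named were, per gene and assay, the one with the highest column 4 or width in the lowest-numbered wild-type library, and per gene and comparison up to 3 lost and 3 gained regions with the highest value in the lowest-numbered library that has them. Genes like a member were the 2 with the highest r among windows with a mean of at least 5 peaks in each assay. Cell type markers counted as present with a peak within 1 kb. The calling code was tested on simulated data. Alternatives were the upper 50% of each list, lists trimmed to the shortest, the gene span alone, 50% cover, merging over compared libraries, each library left out, same-numbered pairs and, added after seeing the data, scaling by list length and the comparison of ATAC sets. Input libraries were not analysed here. Scripts ran in Python 3.11.15 with pandas 2.3.3 and numpy 2.4.6, and figures were drawn with matplotlib 3.10.9.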

Additional observations from a re-analysis of the deposited data

How the results depend on the processing

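With the upper 50% of each list, the H3K4me1 difference in the number of islands over the 5 windows was -17.5 with 9 regions lost and 0 gained, and the PU.1 difference turned to 5.33 with 1 lost and 1 gained. ATAC regions lost were then 2 without Utx (0 gained), 1 with Smarca4 gRNA in wild type (1 gained), 3 in knockout and 1 with Chd4 gRNA. With lists trimmed to the shortest, H3K4me1 gave -23 and 10 lost, and PU.1 10 lost and 1 gained. The ATAC differences were then 5 without Utx, a change of sign, with 3 lost and 6 gained, 1 with Smarca4 gRNA in knockout, also a change of sign, with 2 lost and 2 gained, and 0 with Chd4 gRNA, with 1 lost and 1 gained. Smarca4 gRNA in wild type gave 2 lost and 1 gained. Scaled to 10000 peaks of the list, the ATAC difference without Utx was 1.04 and so changed sign. Over the gene span alone no H3K4me1 region was gained (0), 1 ATAC region was gained without Utx and 0 were lost with Chd4 gRNA. With 50% of a region covered, 9 PU.1 regions were lost, and 1 was gained with Smarca4 gRNA in wild type. The cause of these shifts was not tested, beyond the shorter lists that the first 2 settings make.

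Leaving out 1 library at a time gave H3K4me1 differences of -38 to -32 with 19 to 35 lost and 1 to 4 gained. PU.1 gave -12.3 to 7.67, the highest without knockout replicate 2, with 6 to 8 lost and 2 to 9 gained. ATAC without Utx gave -15.5 to -7.5 with 10 to 20 lost and 3 to 7 gained, Smarca4 gRNA in wild type -18 to -9 with 7 to 14 and 0 to 4, in knockout -22.5 to -9.5 with 7 to 16 and 0 to 1, and Chd4 gRNA -19.5 to -8.5 with 5 to 12 and 0 to 1. Fewer libraries make the calls easier to meet, so such counts tend to rise, and none fell here. The log2 ratio at Prdm16 ran from -2.41 to -1.44 for H3K4me1 and from -1.11 to -0.80 for PU.1.

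Replicate numbers are shared between groups, but nothing ties same-numbered samples to 1 animal, and their deviations correlated at -0.05 to 0.15. With the replicate block the differences stayed the same by construction (-3 for PU.1 and -11.5 for ATAC without Utx), with an exact paired p of 0.5 for each ATAC comparison. Groups of 2 or 3 libraries, peak presence without depth and lists of unequal length limit every count here.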
